A study of Oryza sativa with 8 samples.

Results

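Pectin-modifying enzymes and the proteins annotated with them were examined in rice shoot apical meristems, where dividing cells give rise to leaves and, later, to the panicle. Members were all loci whose annotation text, whatever the case, names pectin (and so pectinesterase or pectin acetylesterase), polygalacturonase, pectate lyase or glycoside hydrolase family 28, with 1 transcript model kept per locus, the one with the highest mean. The rule found 141 loci among 36819. By their annotation they fell into 9 classes: 30 pectinesterases, 27 pectinesterase inhibitor domain proteins, 26 polygalacturonases, 2 polygalacturonase beta subunits, 6 polygalacturonase inhibitors, 7 pectate lyases, 8 pectin acetylesterases, 32 proteins with a pectin lyase fold and 3 pectin-glucuronyltransferases. The name of the set is broader than its chemistry, because the inhibitors cut no pectin, the lyase fold is a protein shape rather than an activity, and the glucuronyltransferases build polysaccharide.

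Single-end RNA sequencing of total RNA was made from 8 libraries. The labels assign 2 to Nipponbare, the control cultivar, 3 to GW6a-4.6, a substitution line with a chromosome fragment of the cultivar Kasalath in a Nipponbare background, and 3 to OsglHAT1-OE, transgenic plants in a Nipponbare background. GW6a is also known as OsglHAT1, a histone acetyltransferase gene that affects grain size. The promoter of the transgene, the number of transgenic lines, plant age and stage, and whether replicates were separate plants are not given in the sources used here, so the p-values measure only the spread between these libraries.

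Pectin is a galacturonic acid polymer that reaches the plant wall with most of its acid groups methylated. Pectinesterases remove the methyl groups, after which the polymer can be stiffened by calcium or cut by polygalacturonases and pectate lyases, and inhibitor proteins restrain some of these enzymes. In the shoot meristem of Arabidopsis, pectin demethylation is known to accompany wall softening and the outgrowth of new organs, while grass walls such as those of rice hold less pectin than those of most other flowering plants.

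The GW6a transcript itself, Os06t0650300-00, was read first to check the groups. Its deposited signal was 1.46 and 2.3 in Nipponbare, 2642, 2573 and 2913 in GW6a-4.6, and 13.2, 8.87 and 10 in OsglHAT1-OE. The libraries labelled as overexpressing it were therefore above Nipponbare but 253-fold below the substitution line, so both lines are named below strictly by their labels and no dose of the gene is read from them. Whether the labels of the lines were exchanged was not tested, and an exchange would swap the meaning of every value given for GW6a-4.6 and OsglHAT1-OE. The meristem genes OSH1 (31.7 ± 2.4 in Nipponbare, SD, n = 2), OSH15 (48.7 ± 2.07) and FON1 (88.6 ± 3.2) were present in all libraries. OSH1 was 3.1-fold and OSH15 3.46-fold higher in the libraries labelled GW6a-4.6, and 3.33-fold and 1.95-fold higher in those labelled OsglHAT1-OE. A further meristem gene, OSH43, was 2.34-fold and 1.98-fold higher in the same order of lines. These genes were all called higher in both lines, while FON1 and LOG were called in neither line against Nipponbare. Library totals ran from 5207710 to 7667853 reads, so 3 reads were worth 0.391 to 0.576 units of signal, a limit set by counting error alone. The signal is read alignments to a model per 1000000 reads of the library, and since it is not divided by transcript length, levels are compared between libraries and never between genes. OsglHAT1-OE replicate 3 stood apart, with a median-ratio scaling factor of 0.864 against 1.01 to 1.07 in the other 7 libraries, and it was the lowest of its group at 64 of 93 tested members (68.8%) and at 69.4% of all tested loci.

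Of the 141 members, 93 reached a signal of 1 in at least 2 libraries and were tested, 48 did not, and 16 of those 48 had no read in any library. The tested members include 6 that reached that level in libraries of 1 group only, so counts over the tested members are descriptions. In the libraries labelled GW6a-4.6, 42 members rose (45.2%) and 17 fell (18.3%) against Nipponbare, beside 26.7% and 19.5% of all 31487 tested loci (limma, Benjamini-Hochberg adjusted p under 0.05). The median log2 change was 0.49 for the members and 0.07 for all loci, and 26 of the rises and 7 of the falls were at least 1 on the log2 scale. In the libraries labelled OsglHAT1-OE, 34 members rose (36.6%) and 16 fell (17.2%), beside 22.8% and 29.7% of all loci, with medians of 0.19 and -0.08. Here 16 rises and 9 falls were at least 1 on the log2 scale, beside 6709 of the 31487 loci in both directions together. Without replicate 3 of that group 36 members rose and 15 fell. The balance of all loci in this comparison depends on scaling, with 7179 higher and 9357 lower as deposited, 8689 and 8923 with median-ratio scaling, and 9120 and 8261 with quantile normalization. The members numbered 37 higher and 16 lower with the first scaling and 39 and 16 with the other. For GW6a-4.6, 8413 loci were higher and 6153 lower as deposited, and 7992 and 7901 with median-ratio scaling, where 40 members were higher and 19 lower. Both comparisons share the same 2 Nipponbare libraries, so their values are set side by side and do not count as independent of each other. Because whole meristems were sampled, fewer cells of a type and less RNA per cell cannot be told apart.

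**Figure D1:**
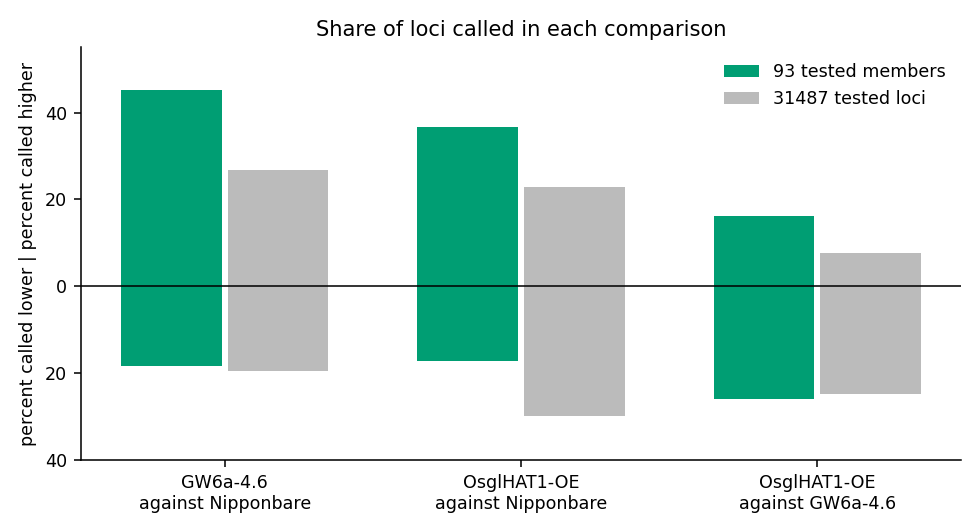
Percent of the 93 tested members (green) and of all 31487 tested loci (grey) called higher (above the line) or lower (below it) by limma in each of the 3 comparisons. The green bar for higher calls reaches 45.2% and 36.6% in the 2 lines against Nipponbare, where the grey one reaches 26.7% and 22.8%.

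Between the lines themselves, 15 members were higher (16.1%) and 24 lower (25.8%) in the libraries labelled OsglHAT1-OE than in those labelled GW6a-4.6, beside 7.69% and 24.7% of all loci (limma). None of the higher calls, but 11 of the lower ones, were at least 1 on the log2 scale. This split depends on scaling: median-ratio scaling gave 22 higher and 19 lower members, and 5893 higher and 5857 lower loci in place of 2422 and 7787. The median of all loci moved from -0.13 to 0.01 with that scaling, so a difference between the lines of the order of 0.1 is within what the scaling decides. Leaving out OsglHAT1-OE replicate 3 gave 17 members higher and 18 lower.

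**Figure D2:**
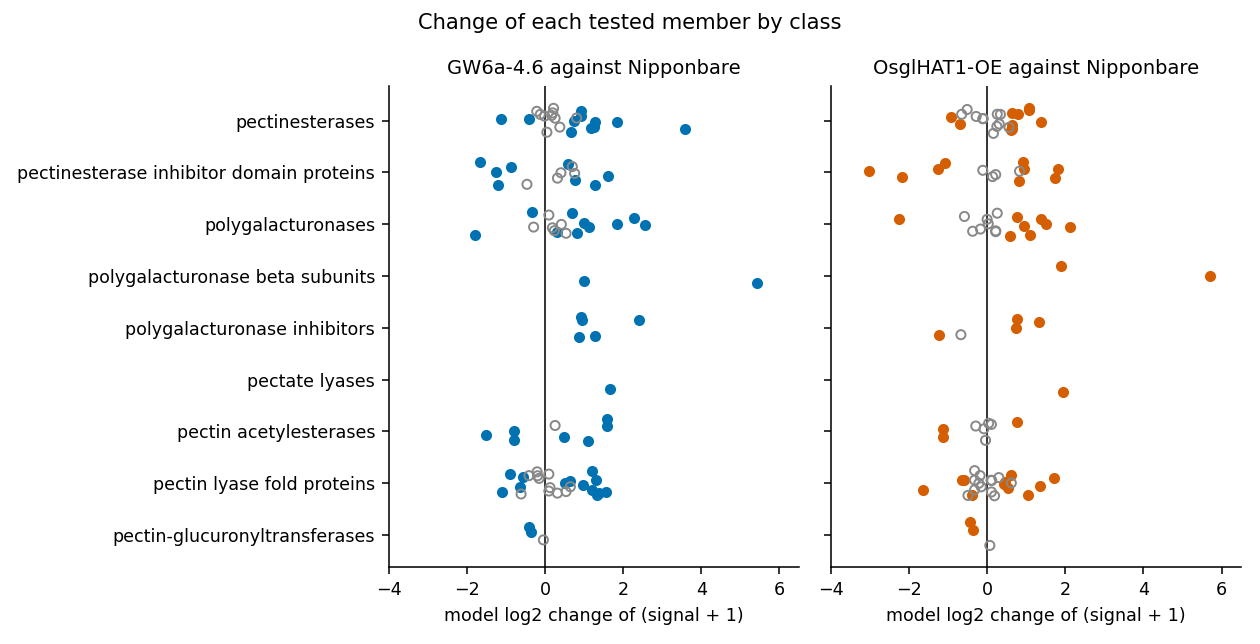
Model log2 change of (signal + 1) against Nipponbare for each of the 93 tested members, by class, in GW6a-4.6 (left) and OsglHAT1-OE (right). Filled points were called by limma and open points were not. The polygalacturonase beta subunit at 5.42 and 5.70 lies farthest to the right in both panels, and rises and falls occur side by side within the pectinesterases, inhibitor domain proteins, polygalacturonases, acetylesterases and lyase fold proteins.

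Pectinesterases are the enzymes that take the methyl groups off pectin. Of 21 tested, 9 rose (42.9%) and 2 fell (9.52%) in the libraries labelled GW6a-4.6, beside 26.7% and 19.5% of all loci, with a median log2 change of 0.38. In those labelled OsglHAT1-OE, 8 rose (38.1%) and 2 fell (9.52%), beside 22.8% and 29.7% of all loci, with a median of 0.31. These shares of all loci are the background for the counts of the other classes too. The change of largest size belonged to Os01t0788400-01, whose signal was 9.51 and 11.5 in Nipponbare, 144, 139 and 128 in GW6a-4.6, and 16.4, 11.6 and 10.5 in OsglHAT1-OE. All 3 libraries labelled GW6a-4.6 stood far above the other 5, and those of the other line overlapped Nipponbare. The rise was 13-fold, a log2 change of 3.59 ± 0.17 (SE, limma adjusted p = 4.61e-20), against 0.25 ± 0.17 in OsglHAT1-OE (limma adjusted p = 0.22, called with quantile normalization and without replicate 3 of that group), and the lines differed by -3.34 ± 0.15 (limma adjusted p = 2.88e-20).

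Another pectinesterase with this shape was Os02t0288100-01. It read 0.585 and 0.384 in Nipponbare, 4.28, 5.73 and 3.26 in GW6a-4.6, and 0, 0.782 and 0.442 in OsglHAT1-OE, so that 5 libraries lay near the limit of a few reads. It is one of the 6 members that reached the tested level in 1 group only, here the group where it is high, so its values are a description. It was 9.13-fold higher in GW6a-4.6 than in Nipponbare and 10.8-fold lower in OsglHAT1-OE than in GW6a-4.6. Os11t0172100-00 had no read in Nipponbare and 1.43, 1.72 and 1.09 in GW6a-4.6, at least 5.67-fold higher when 3 reads over the whole Nipponbare group are taken as the limit. Without those 3 libraries it would not have reached the tested level, so its values too are a description. In OsglHAT1-OE it read 1.47, 0 and 0.295, which overlaps both other groups, and it was called higher than Nipponbare there only with edgeR and DESeq2.

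Several of this class were raised in both lines. Os06t0104300-01, on chromosome 6, read 70.6 and 55.9 in Nipponbare, 128, 160 and 141 in GW6a-4.6, and 168, 173 and 154 in OsglHAT1-OE. Neither line overlapped Nipponbare, and the changes were 2.26-fold (log2 1.17 ± 0.11, limma adjusted p = 2.57e-11) and 2.61-fold (1.38 ± 0.11, limma adjusted p = 2.44e-13). Os01t0100400-01 rose from 28.8 and 30.3 to 46.4, 46.6 and 57.4 in GW6a-4.6 and to 66.9, 59.6 and 61.8 in OsglHAT1-OE, with no overlap among the 3 groups. Its log2 changes were 0.74 ± 0.13 and 1.06 ± 0.13 (limma adjusted p = 1.80e-05 and 1.65e-08), and the difference of 0.32 between the lines was lost when any 1 of 3 libraries was left out (GW6a-4.6 replicate 1 or 2, or OsglHAT1-OE replicate 1; adjusted p up to 0.137 over all alternatives). Os04t0553650-00 rose 2.79-fold in GW6a-4.6 (limma adjusted p = 1.25e-04) and 1.75-fold in OsglHAT1-OE (limma adjusted p = 0.0432), the latter with overlapping libraries and lost under 6 of 19 alternatives, among them leaving out either Nipponbare library or OsglHAT1-OE replicate 1 or 2 (adjusted p up to 0.198). Os01t0254300-00 rose 2.43-fold in OsglHAT1-OE (limma adjusted p = 0.00126), and its 1.76-fold rise in GW6a-4.6 (limma adjusted p = 0.042) was lost under 9 of 19 alternatives, among them leaving out Nipponbare replicate 1 or GW6a-4.6 replicate 2 or 3 (adjusted p up to 0.347).

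Other pectinesterases were raised in OsglHAT1-OE and not called in GW6a-4.6, although Os01t0880300-02 was called there without GW6a-4.6 replicate 2. Os01t0880300-02 read 56.5 and 48.8 in Nipponbare, 70.7, 53.3 and 66.1 in GW6a-4.6, and 88.4, 83.9 and 74.4 in OsglHAT1-OE, a log2 change of 0.63 ± 0.13 there (limma adjusted p = 6.51e-05) and 0.38 ± 0.11 above GW6a-4.6 (limma adjusted p = 0.00983, up to 0.113 and lost without GW6a-4.6 replicate 2 or OsglHAT1-OE replicate 1). Os06t0193200-01 also rose by 0.63 ± 0.18 in OsglHAT1-OE (limma adjusted p = 0.00398), a call lost without Nipponbare replicate 2 (adjusted p up to 0.154). In the opposite direction, Os01t0312500-01 fell from 51.6 and 54.3 in Nipponbare to 26.8, 16.8 and 29.7 in GW6a-4.6 and 32.9, 25.7 and 24.2 in OsglHAT1-OE. Both lines lay wholly below Nipponbare and overlapped each other, with log2 changes of -1.12 ± 0.18 and -0.93 ± 0.18 (limma adjusted p = 2.29e-06 and 3.79e-05). Os07t0119400-01 was lower by -0.41 ± 0.14 in GW6a-4.6 (limma adjusted p = 0.0132), with overlapping libraries, and that call was lost without Nipponbare replicate 1, GW6a-4.6 replicate 2 or GW6a-4.6 replicate 3 (adjusted p up to 0.237).

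1 pectinesterase, Os01t0311800-01, was called in opposite directions in the 2 lines. It read 3.51 and 6.53 in Nipponbare, 12.3, 7.65 and 10.9 in GW6a-4.6, and 3.08, 2.74 and 2.06 in OsglHAT1-OE. The 3 groups did not overlap, and the order was GW6a-4.6, Nipponbare, OsglHAT1-OE, although the 2 Nipponbare libraries differed widely from each other. The changes were 0.93 ± 0.28 in GW6a-4.6 (limma adjusted p = 0.00683) and -0.69 ± 0.28 in OsglHAT1-OE (limma adjusted p = 0.0381), and the rise was lost without Nipponbare replicate 1 (adjusted p up to 0.217). The fall was lost under 7 of 19 alternatives, among them leaving out Nipponbare replicate 2 or OsglHAT1-OE replicate 2 or 3 (adjusted p up to 0.496). Os01t0312500-01, described above as falling in both lines, is its neighbour, where members within 10 loci of each other count as neighbours.

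Pectinesterase inhibitor domain proteins, which include proteins that bind and block pectinesterases, moved in both directions. Of 13 tested, 4 rose and 4 fell in the libraries labelled GW6a-4.6 (30.8% each, beside 26.7% and 19.5% of all loci, median log2 change 0.41). In those labelled OsglHAT1-OE, 5 rose (38.5%) and 4 fell (30.8%), beside 22.8% and 29.7% of all loci (median 0.22). Os12t0283400-01 read 11.7 and 9.22 in Nipponbare, 2.86, 2.87 and 2.17 in GW6a-4.6, and 0.734, 0.391 and 0.147 in OsglHAT1-OE. The 3 groups formed separate steps, each lower than the last. It fell 3.97-fold in GW6a-4.6 (log2 -1.66 ± 0.31, limma adjusted p = 2.64e-05) and 24.7-fold in OsglHAT1-OE (-3.02 ± 0.31, limma adjusted p = 1.23e-10), and the lines differed 6.21-fold (limma adjusted p = 1.57e-04).

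Os02t0537000-01 showed the same order, with 8.19 and 7.3 in Nipponbare, 3.21, 2.68 and 6.16 in GW6a-4.6, and 1.17, 1.04 and 0.59 in OsglHAT1-OE. Its 8.28-fold fall in OsglHAT1-OE (limma adjusted p = 2.16e-07) was kept under all 19 alternatives, while the 1.93-fold fall in GW6a-4.6 (limma adjusted p = 0.0222) was lost under 6 of them, among them leaving out either Nipponbare library or GW6a-4.6 replicate 1 or 2 (adjusted p up to 0.138). Os03t0100100-01 fell to a like extent in both lines, by log2 changes of -1.21 ± 0.30 and -1.25 ± 0.30 (limma adjusted p = 0.0011 and 6.46e-04). Os02t0689000-01 also fell, from 2.63 and 3.07 to 0 to 1.45 in GW6a-4.6 and 0.522 to 1.47 in OsglHAT1-OE (limma adjusted p = 0.00448 and 0.0117), and both calls were lost without Nipponbare replicate 2 (adjusted p up to 0.0553 and 0.0991). The call in OsglHAT1-OE was also lost without replicate 2 of that group, with a pseudocount of 0.1 and with DESeq2.

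Among the inhibitor domain proteins that rose, Os08t0108100-01 read 26.9 and 34.2 in Nipponbare, 67.8, 67.1 and 90.2 in GW6a-4.6, and 121, 105 and 88.1 in OsglHAT1-OE. Both lines lay above Nipponbare and overlapped each other, with rises of 2.46-fold (log2 1.27 ± 0.14, limma adjusted p = 9.00e-10) and 3.43-fold (1.74 ± 0.14, limma adjusted p = 1.88e-13). Os12t0599700-01 rose from 1.76 and 2.69 to 12.9, 5.73 and 9.06 in GW6a-4.6 and 11.2, 12.3 and 7.81 in OsglHAT1-OE, which is 4.15-fold and 4.68-fold (limma adjusted p = 8.39e-06 and 8.90e-07). Its neighbour Os12t0599800-01, named because of that position after its values were seen, rose by 0.78 ± 0.25 and 0.93 ± 0.25 on the log2 scale (limma adjusted p = 0.0113 and 0.00225). Neighbours with near-identical sequence could share reads, and how far they did was not tested. On chromosome 6, Os06t0711800-01 rose by 0.59 ± 0.12 and 0.82 ± 0.12 (limma adjusted p = 1.46e-04 and 7.82e-07). Os10t0508700-01 rose by 0.95 ± 0.23 in OsglHAT1-OE (limma adjusted p = 8.13e-04), a call lost without Nipponbare replicate 2 (adjusted p up to 0.0956), and Os04t0106000-01, at a mean of 14.4 ± 0.765 in Nipponbare, 18.3 ± 1.14 in GW6a-4.6 and 16.6 ± 5.11 in OsglHAT1-OE (SD, n = 2, 3 and 3), was not called.

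**Figure D3:**
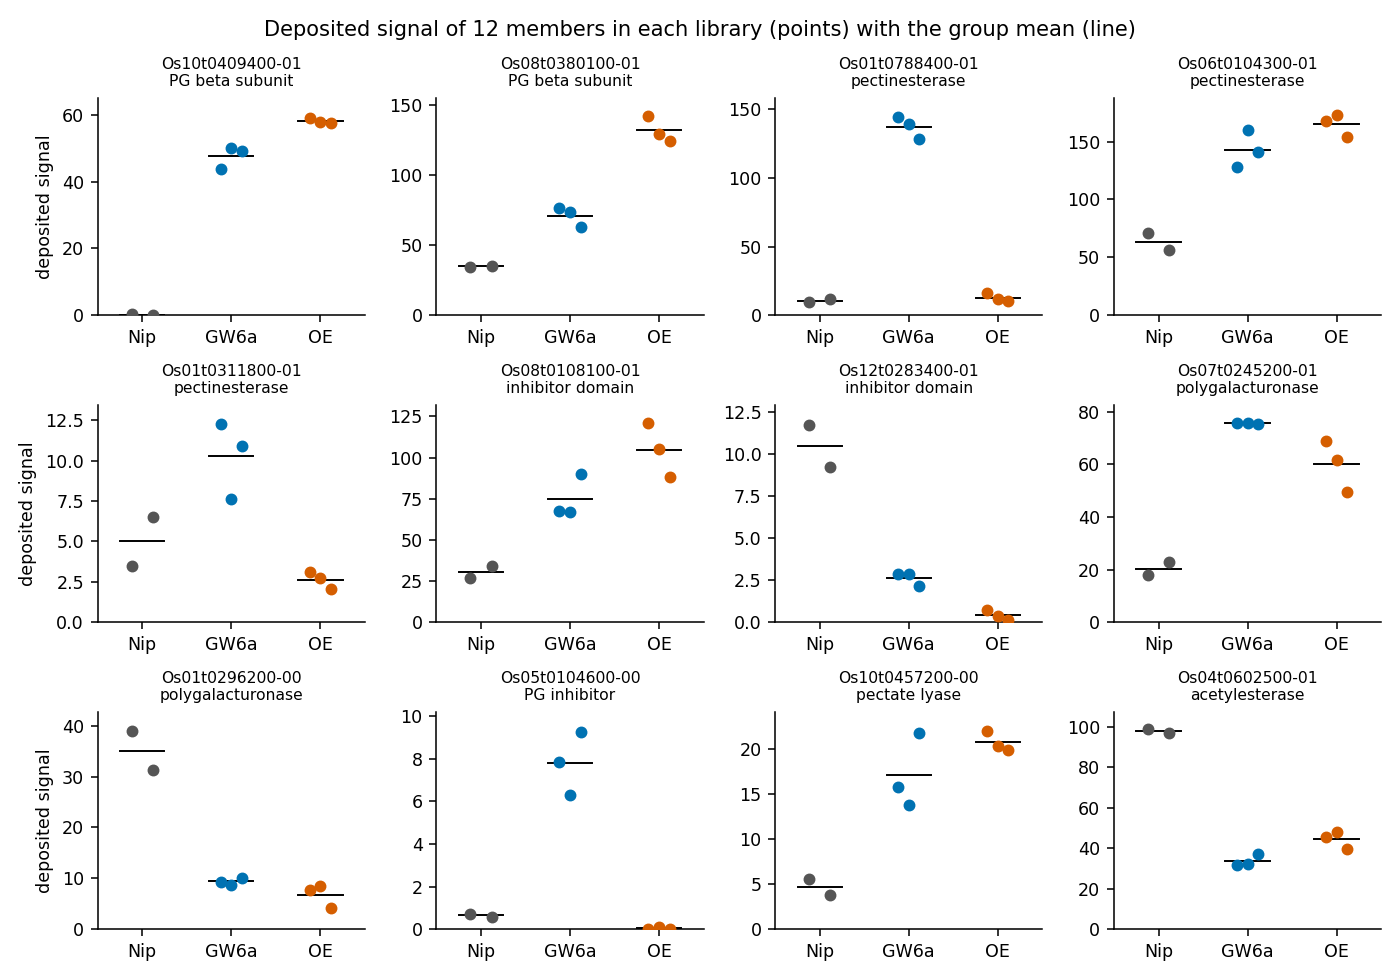
Deposited signal (vertical axis, each panel with its own scale from 0) of 12 members in every library, as points, with the group mean as a line. Nip stands for Nipponbare, GW6a for GW6a-4.6 and OE for OsglHAT1-OE. Os10t0409400-01 goes from 0.293 and 0 in Nipponbare to 43.9 or more in every other library, while Os01t0788400-01 and Os05t0104600-00 are high in the 3 libraries labelled GW6a-4.6 and low in the other 5.

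Pectin acetylesterases, which remove acetyl groups from pectin, were all 8 tested and split by locus. Against Nipponbare, in the libraries labelled GW6a-4.6, 4 rose (50%) and 3 fell (37.5%), beside 26.7% and 19.5% of all loci, and in those labelled OsglHAT1-OE, 1 rose (12.5%) and 2 fell (25%), beside 22.8% and 29.7%. Os04t0602500-01 read 98.9 and 97 in Nipponbare, 31.6, 32.1 and 37.3 in GW6a-4.6, and 45.6, 47.9 and 39.7 in OsglHAT1-OE. Every library of both lines lay below Nipponbare, by 2.91-fold (log2 -1.52 ± 0.13, limma adjusted p = 3.34e-12) and 2.21-fold (-1.13 ± 0.13, limma adjusted p = 3.37e-09). Os07t0634600-01 fell from 236 and 245 to 141, 141 and 132 in GW6a-4.6 and to 111, 116 and 102 in OsglHAT1-OE. Again no library overlapped across the 3 groups, with log2 changes of -0.79 ± 0.10 and -1.13 ± 0.10 (limma adjusted p = 8.91e-09 and 1.26e-12). Os01t0892600-02 fell by -0.79 ± 0.13 in GW6a-4.6 (limma adjusted p = 6.64e-06), was at -0.29 ± 0.13 in OsglHAT1-OE without being called (limma adjusted p = 0.0683), and differed between the lines by 0.50 ± 0.12 (limma adjusted p = 0.00128).

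The acetylesterases that rose did so chiefly in the libraries labelled GW6a-4.6. Os10t0550500-01 read 6.14 and 5.38 in Nipponbare, 21.4, 21.4 and 15.9 in GW6a-4.6, and 7.93, 6.78 and 4.57 in OsglHAT1-OE. The first line stood 3.4-fold above Nipponbare (limma adjusted p = 7.75e-07), the other overlapped Nipponbare, and the lines differed by -1.49 ± 0.22 on the log2 scale (limma adjusted p = 7.88e-07). Os02t0702400-01 had 13.7 and 13.4 in Nipponbare, 38.2, 42.4 and 48.5 in GW6a-4.6, and 27.3, 29.7 and 16.8 in OsglHAT1-OE. It rose in both lines without overlap, by log2 changes of 1.59 ± 0.19 and 0.77 ± 0.19 (limma adjusted p = 4.09e-09 and 6.04e-04), and was 1.75-fold lower in OsglHAT1-OE than in GW6a-4.6 (limma adjusted p = 1.75e-04). Os01t0319000-02 rose 2.57-fold in GW6a-4.6 (limma adjusted p = 0.00231), which was lost without Nipponbare replicate 2 (adjusted p up to 0.0957), and was 2.83-fold lower in OsglHAT1-OE than in GW6a-4.6 (limma adjusted p = 5.89e-04). Summed over the 8 loci, the signal was 449 and 476 in Nipponbare, 323 to 334 in GW6a-4.6 and 244 to 295 in OsglHAT1-OE.

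Polygalacturonases, the family 28 glycoside hydrolases that cut the demethylated chain, had 16 tested members. Of these 8 rose (50%, beside 26.7% of all loci) and 2 fell (12.5%, beside 19.5%) in the libraries labelled GW6a-4.6, with a median log2 change of 0.48. In those labelled OsglHAT1-OE, 7 rose (43.8%, beside 22.8%) and 1 fell (6.25%, beside 29.7%), with a median of 0.24. Os07t0245200-01 read 18.1 and 22.7 in Nipponbare, 75.7, 75.7 and 75.3 in GW6a-4.6, and 68.7, 61.8 and 49.5 in OsglHAT1-OE. Both lines were above Nipponbare in every library, by 3.7-fold (log2 1.85 ± 0.14, limma adjusted p = 5.72e-14) and 2.94-fold (1.51 ± 0.14, limma adjusted p = 9.66e-12), and the call between the lines (limma adjusted p = 0.0324) was lost under 10 of 19 alternatives, among them leaving out any library labelled GW6a-4.6 or OsglHAT1-OE replicate 2 or 3 (adjusted p up to 0.203). Os05t0578600-01 went from 0.878 and 1.15 to 9.1, 8.6 and 8.51 in GW6a-4.6 and to 5.28, 10.6 and 7.96 in OsglHAT1-OE. These are rises of 8.61-fold and 7.82-fold, with no overlap with Nipponbare (limma adjusted p = 9.62e-09 and 3.75e-08). Without the libraries of the lines, where it is high, this locus would not have reached the tested level, so its values are a description.

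The family 28 hydrolase Os06t0106800-01, on chromosome 6, rose in steps. Its signal was 202 and 191 in Nipponbare, 360, 328 and 348 in GW6a-4.6, and 436, 429 and 413 in OsglHAT1-OE. The groups formed separate rising steps, with log2 changes of 0.81 ± 0.08 and 1.11 ± 0.08 against Nipponbare (limma adjusted p = 1.12e-10 and 1.86e-14) and 0.30 ± 0.07 between the lines (limma adjusted p = 0.00128). Os01t0636500-01 rose 2.18-fold and 2.06-fold (limma adjusted p = 2.37e-04 and 4.21e-04). Os12t0554800-01 rose by 0.76 ± 0.13 in OsglHAT1-OE (limma adjusted p = 5.35e-06), and its change of 0.32 ± 0.13 in GW6a-4.6 (limma adjusted p = 0.0419) was lost under 11 of 19 alternatives, among them leaving out either Nipponbare library, GW6a-4.6 replicate 2 or 3, or OsglHAT1-OE replicate 2 (adjusted p up to 0.18).

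Some polygalacturonases separated the lines. Os01t0623600-01 had 0.146 and 0 in Nipponbare, from 1 read, then 6.96, 4.4 and 4.71 in GW6a-4.6 and 1.32, 2.09 and 2.06 in OsglHAT1-OE. All libraries of both lines were higher than Nipponbare, and the ratios of 73.2 (95% counting interval 11.3 to 2588) and 24.9 (3.74 to 895) rest on that single read (limma adjusted p = 1.56e-08 and 3.32e-04). It reached the tested level only in the lines, where it is high, so its values against Nipponbare are a description. Os05t0542800-02 read 13.6 and 14.2 in Nipponbare, 36.1, 33.6 and 26.6 in GW6a-4.6, and 19.7, 14.3 and 15.5 in OsglHAT1-OE. It rose 2.31-fold in GW6a-4.6 (limma adjusted p = 3.01e-06), was at a log2 change of 0.22 ± 0.19 in OsglHAT1-OE (limma adjusted p = 0.334), and differed by -0.92 ± 0.17 between the lines (limma adjusted p = 3.18e-05). Os01t0618900-01 was lower in GW6a-4.6 by -0.33 ± 0.10 (limma adjusted p = 0.00869), which was lost without Nipponbare replicate 1 (adjusted p up to 0.117). Os07t0208100-01 was called only between the lines, at -0.59 ± 0.23 (limma adjusted p = 0.0431), and that was lost under 10 of 19 alternatives, among them leaving out any library labelled GW6a-4.6 or OsglHAT1-OE replicate 3 (adjusted p up to 0.302).

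The polygalacturonase with the largest fall in both lines was Os01t0296200-00. It read 38.9 and 31.3 in Nipponbare, 9.28, 8.79 and 10.1 in GW6a-4.6, and 7.78, 8.48 and 4.13 in OsglHAT1-OE. Each library of the lines lay well below Nipponbare. The falls were 3.73-fold (log2 -1.79 ± 0.24, limma adjusted p = 6.12e-08) and 5.17-fold (-2.25 ± 0.24, limma adjusted p = 2.55e-10), and the difference of -0.47 ± 0.21 between the lines was not called (limma adjusted p = 0.0909), except without OsglHAT1-OE replicate 2.

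Polygalacturonase beta subunits are wall proteins named for a partner of polygalacturonase in tomato fruit. Both loci rose in both lines. Os10t0409400-01 was nearly silent in Nipponbare, at 0.293 and 0 from 2 reads, and read 43.9, 50.1 and 49.3 in GW6a-4.6 and 59, 57.9 and 57.5 in OsglHAT1-OE. No library of either line came near Nipponbare, and the lines did not overlap each other. The ratios were 326 (95% counting interval 79.2 to 2376) and 397 (96.7 to 2894). These intervals take the recovered reads as distinct, and are too narrow if a read was counted more than once at this model. The log2 changes were 5.42 ± 0.18 and 5.70 ± 0.18 (limma adjusted p = 1.34e-24 and 3.03e-25). This locus reached the tested level only in the lines, where it is high, so its values against Nipponbare are a description. The difference between the lines, 0.28 ± 0.16, was not called (limma adjusted p = 0.191) but was with median-ratio scaling, quantile normalization, edgeR and DESeq2. The lyase fold protein Os10t0407000-01 is its neighbour on chromosome 10 and fell in both lines, by -0.90 ± 0.13 and -1.63 ± 0.13 (limma adjusted p = 3.35e-07 and 1.96e-13).

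The other beta subunit, Os08t0380100-01, was expressed in all groups, at 34.5 and 35.1 in Nipponbare, 76.6, 73.2 and 62.8 in GW6a-4.6, and 142, 129 and 124 in OsglHAT1-OE. The groups formed 3 separate levels. Its rises were 2.03-fold (SE of 0.12 on the log2 scale, limma adjusted p = 4.07e-09) and 3.79-fold (1.89 ± 0.12, limma adjusted p = 1.63e-16). The step between the lines, 0.89 ± 0.10 (limma adjusted p = 1.05e-08), was the largest higher call between them among all tested members.

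Polygalacturonase inhibitors are leucine-rich repeat proteins of the wall, best known for blocking polygalacturonases of fungi. All 5 tested members rose in the libraries labelled GW6a-4.6, with a median log2 change of 0.96, while 3 rose and 1 fell in those labelled OsglHAT1-OE, with a median of 0.73. Os07t0568700-02, annotated as Floral organ regulator 1, read 267 and 230 in Nipponbare, 510, 437 and 467 in GW6a-4.6, and 456, 412 and 372 in OsglHAT1-OE. Every library of the lines lay above Nipponbare, at log2 changes of 0.92 ± 0.09 and 0.73 ± 0.09 (limma adjusted p = 4.85e-11 and 8.23e-09). The pair Os05t0104200-00 and Os05t0104600-00 are neighbours on chromosome 5. The first read 34.2 and 27.3 in Nipponbare, 81.9, 74 and 71.5 in GW6a-4.6, and 92.2, 71.9 and 71 in OsglHAT1-OE, rising by 1.28 ± 0.13 and 1.32 ± 0.13 (limma adjusted p = 2.14e-10 and 7.42e-11).

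Its neighbour Os05t0104600-00 behaved otherwise, with 0.731 and 0.576 in Nipponbare, 7.85, 6.31 and 9.24 in GW6a-4.6, and 0, 0.13 and 0 in OsglHAT1-OE. Only the 3 libraries labelled GW6a-4.6 held more than a few reads of it. It too reached the tested level only in the group where it is high, so its values are a description. It was 11.9-fold higher there than in Nipponbare, and lower in OsglHAT1-OE than in GW6a-4.6 by a ratio of 179 (95% counting interval 29.3 to 6624), the OsglHAT1-OE group holding 1 read. Its lower signal in OsglHAT1-OE than in Nipponbare was not called, but was under 6 of the alternatives, among them edgeR and DESeq2. Os03t0436600-00 went in opposite directions, with 2.34 and 2.69 in Nipponbare, 6.78, 4.21 and 6.88 in GW6a-4.6, and 0.881, 0.261 and 0.442 in OsglHAT1-OE. The 3 groups did not overlap. It rose 2.37-fold (limma adjusted p = 0.0114) in the first line and fell 4.76-fold (limma adjusted p = 0.00129) in the other, and the rise was lost with a pseudocount of 0.1, with DESeq2 and without Nipponbare replicate 1 (adjusted p up to 0.0901). The fifth tested inhibitor, Os09t0491612-00, named outside the rule after its values were seen, rose by 0.88 ± 0.32 and 0.77 ± 0.32 (limma adjusted p = 0.0223 and 0.0413).

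Pectate lyases, which split demethylated pectin by elimination, were almost absent. Of 7 loci only Os10t0457200-00 was tested, and 3 had no read in any library. It read 5.56 and 3.84 in Nipponbare, 15.7, 13.8 and 21.7 in GW6a-4.6, and 22, 20.3 and 19.8 in OsglHAT1-OE. Both lines lay above Nipponbare and overlapped each other, at 3.63-fold (log2 1.66 ± 0.22, limma adjusted p = 4.88e-08) and 4.41-fold (1.94 ± 0.22, limma adjusted p = 1.07e-09). Os02t0214400-01, untested, reached at most 0.765 in any library, and Os06t0144200-01 had 2 reads in each of the 2 lines and none in Nipponbare. At this depth a difference in these loci was not detectable.

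Proteins with a pectin lyase fold, a helical shape shared by many enzymes that act on polysaccharides, numbered 24 among the tested members. In the libraries labelled GW6a-4.6, 9 rose (37.5%, beside 26.7% of all loci) and 4 fell (16.7%, beside 19.5%), with a median log2 change of 0.23. In those labelled OsglHAT1-OE, 7 rose (29.2%, beside 22.8%) and 4 fell (16.7%, beside 29.7%), with a median of 0.11. Os03t0833800-01 read 88.3 and 70.3 in Nipponbare, 157, 154 and 156 in GW6a-4.6, and 178, 172 and 142 in OsglHAT1-OE. Both lines lay above Nipponbare, by log2 changes of 0.98 ± 0.11 and 1.04 ± 0.11 (limma adjusted p = 1.10e-09 and 1.65e-10). Os03t0124900-01 rose 2.78-fold and 3.53-fold (limma adjusted p = 4.27e-08 and 2.41e-10), and Os02t0130200-01, from 0.439 and 0.96 in Nipponbare, rose 4.75-fold and 4.76-fold (limma adjusted p = 5.13e-04 and 4.14e-04). The latter reached the tested level only in the lines, where it is high, so its values are a description. Os02t0256100-01 rose by 0.53 ± 0.19 in OsglHAT1-OE (limma adjusted p = 0.0166), which was lost when either Nipponbare library was left out (adjusted p up to 0.0873).

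The lyase fold proteins that stood higher in the libraries labelled GW6a-4.6 included Os10t0490100-01, with 13.2 and 13.8 in Nipponbare, 34.6, 32.5 and 38 in GW6a-4.6, and 17.6, 19 and 20.8 in OsglHAT1-OE. The groups did not overlap, and the lines differed by -0.84 ± 0.15 (limma adjusted p = 3.70e-05). Os07t0607400-01 rose 3.18-fold in GW6a-4.6 (limma adjusted p = 0.00156), was at -0.21 ± 0.31 in OsglHAT1-OE (limma adjusted p = 0.596), and differed 4-fold between the lines (limma adjusted p = 1.11e-04). Os08t0220400-01 had no read in Nipponbare and 0.357, 2.68 and 4.17 in GW6a-4.6, at least 9.63-fold higher, with its 3 libraries far apart. As it reached the tested level only through 2 of those libraries, this is a description. Os05t0542900-01 fell from 392 and 368 to 265, 226 and 243 in GW6a-4.6 and 272, 257 and 204 in OsglHAT1-OE, by -0.64 ± 0.10 and -0.65 ± 0.10 (limma adjusted p = 1.12e-06 and 6.35e-07). It is the neighbour of the polygalacturonase Os05t0542800-02, which rose in GW6a-4.6. Os05t0395000-03 fell by -1.09 ± 0.15 in GW6a-4.6 and by -0.60 ± 0.15 in OsglHAT1-OE (limma adjusted p = 1.42e-07 and 9.18e-04). Os01t0201600-01, at 380 ± 51.1 in Nipponbare (SD, n = 2), was not called in either line against Nipponbare, but it was called lower in GW6a-4.6 with median-ratio scaling, with edgeR, with DESeq2, and without Nipponbare replicate 2 or OsglHAT1-OE replicate 3, and higher in OsglHAT1-OE with edgeR and without replicate 3 of that group.

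Loci annotated as pectin-glucuronyltransferases carry a name from tobacco, and their relatives in Arabidopsis are known for building xylan rather than pectin. None of the 3 rose. Os01t0926600-01 read 213 and 222 in Nipponbare, 159, 172 and 163 in GW6a-4.6, and 159, 161 and 156 in OsglHAT1-OE. Both lines lay below Nipponbare, by -0.40 ± 0.09 and -0.45 ± 0.09 (limma adjusted p = 3.97e-04 and 6.50e-05). Os04t0398600-02 was at -0.36 ± 0.11 in each line (limma adjusted p = 0.00683 and 0.0051), and both calls were lost without Nipponbare replicate 1 (adjusted p up to 0.17 and 0.142). Os01t0926400-01, the neighbour of the first, was at -0.04 ± 0.18 and 0.07 ± 0.18 (limma adjusted p = 0.871 and 0.781).

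**Figure D4:**
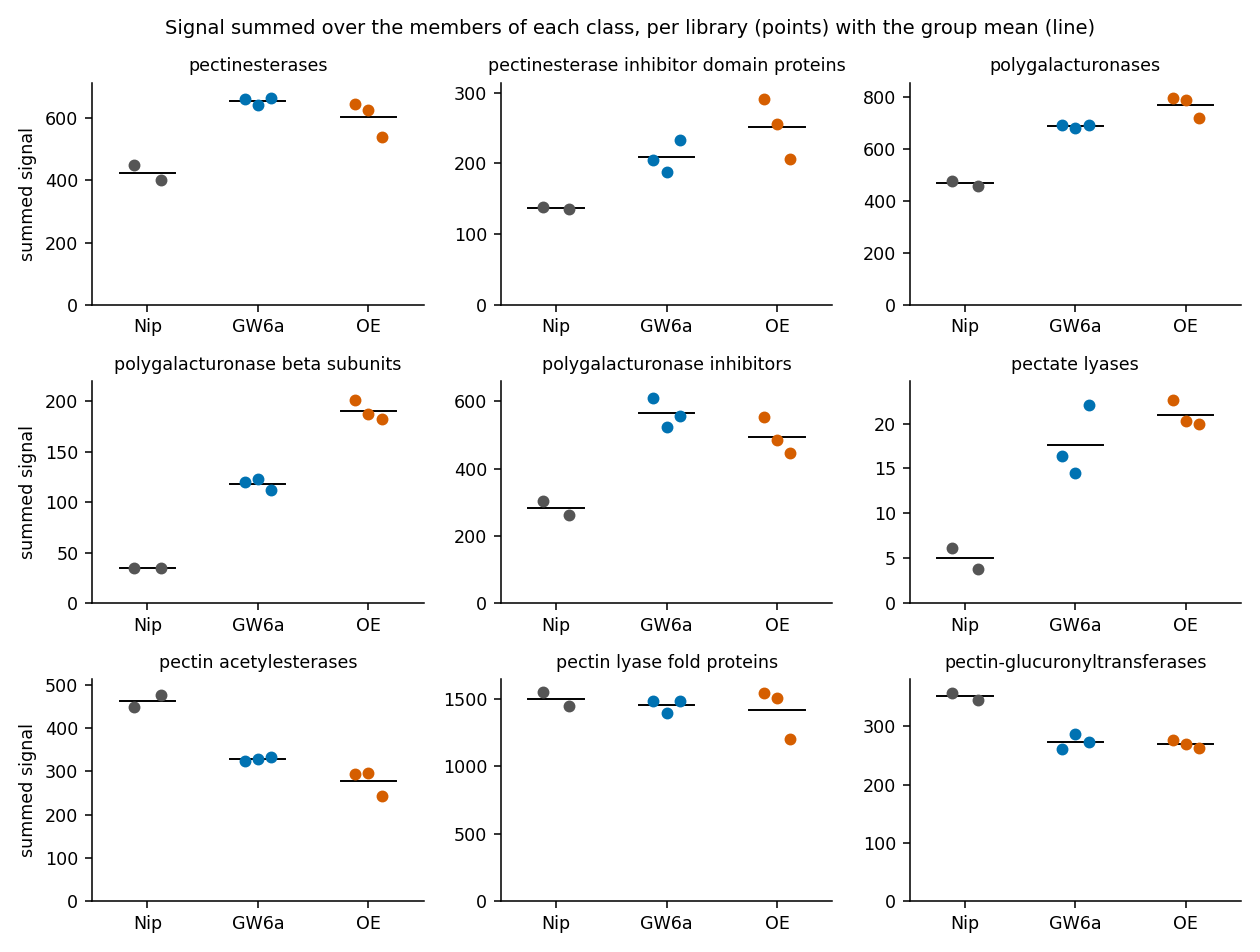
Deposited signal summed over the members of each class (vertical axis, each panel from 0) in every library, as points, with the group mean as a line. The polygalacturonase sum is 476 and 459 in Nipponbare and 679 or more in every other library, the acetylesterase sum is 449 and 476 in Nipponbare and 334 or less in every other, and the lyase fold sums of the 3 groups overlap.

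Summed over their class, pectinesterases gave a signal of 447 and 399 in Nipponbare, 640 to 664 in GW6a-4.6 and 537 to 644 in OsglHAT1-OE. Polygalacturonases gave 476 and 459, then 679 to 694 and 718 to 796, and polygalacturonase inhibitors 305 and 262, then 524 to 611 and 447 to 553. In these classes neither line overlapped Nipponbare, but single loci weighed heavily in the sums. In Nipponbare, GW6a-4.6 and OsglHAT1-OE, the inhibitor Os07t0568700-02 alone had means of 248, 471 and 414. The polygalacturonase Os06t0106800-01 had 196, 346 and 426, and the pectinesterase Os01t0788400-01 had 10.5, 137 and 12.8. The sums of the acetylesterases and the glucuronyltransferases (357 and 345 in Nipponbare, 261 to 286 and 262 to 277 in the lines) lay below Nipponbare in every library of both lines. Lyase fold proteins summed to 1549 and 1449, then 1399 to 1487 and 1203 to 1545, with OsglHAT1-OE replicate 3 lowest. The sums were given no test.

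Position and cell type markers were set beside these changes. Members on chromosome 6, which carries GW6a, numbered 13, and most of them were not tested. The 3 called in GW6a-4.6 (Os06t0104300-01, Os06t0106800-01 and Os06t0711800-01) were higher there and in OsglHAT1-OE as well. Os06t0193200-01, the only other one tested, was called higher in OsglHAT1-OE alone. Of all tested loci, 26.7% were called higher and 19.5% lower in GW6a-4.6, and both comparisons share the Nipponbare libraries. Members lying within 10 loci of one another formed 24 clusters holding 53 members, the largest of 4 on chromosome 11, of which none was tested. Many pectin enzymes of flowering plants are known from pollen, and the pollen and tapetum list summed to 2784 to 2931 in Nipponbare, 2963 to 3308 in GW6a-4.6 and 3661 to 4316 in OsglHAT1-OE. Of its 60 loci, 8 had no read in any library, and among the 43 tested, 15 rose (34.9%, beside 26.7% of all loci) and 3 fell (6.98%, beside 19.5%) in GW6a-4.6, and 18 rose (41.9%, beside 22.8%) and 4 fell (9.3%, beside 29.7%) in OsglHAT1-OE. The root list summed to 162 to 170, 177 to 184 and 211 to 257 in the same order, the leaf list to 1209 to 1399, 1180 to 1517 and 1401 to 1715, and the seed and embryo list to 215 to 221, 192 to 202 and 154 to 188. The same background holds for the other lists. Of 12 tested root loci 5 rose (41.7%) and 1 fell in GW6a-4.6 and 7 rose (58.3%) in OsglHAT1-OE, of 9 leaf loci 2 rose and 1 fell, then 3 rose, and of 13 seed loci 3 rose and 4 fell, then 2 rose and 3 fell. The part of these cell types in the changes of the pectin loci was not tested.

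Other loci that may act on pectin were counted with lists, made by annotation text, that leave out the members above. The pectin synthesis list had 40 tested loci. Most were annotated only as family 8 glycosyltransferases or as putative methyltransferases (DUF248), so their part in making pectin is not given by the annotation. Of these 40 loci, 7 rose (17.5%) and 14 fell (35%) in the libraries labelled GW6a-4.6. In those labelled OsglHAT1-OE, 8 rose (20%) and 9 fell (22.5%), and the median log2 changes were -0.11 and -0.04. Enzymes that trim rhamnogalacturonan side chains, beta-galactosidases and arabinofuranosidases in the main, had 9 tested loci of 14, of which 6 rose and none fell in GW6a-4.6 and 7 rose and 1 fell in OsglHAT1-OE, with medians of 0.92 and 0.54. Wall sensing genes, the wall-associated kinases that bind pectin and the RALF peptides, had 19 tested loci of 31. Of these, 4 rose (21.1%) and 2 fell (10.5%) in GW6a-4.6. In OsglHAT1-OE, 3 rose (15.8%) and 9 fell (47.4%), and the medians were -0.04 and -0.23. The counts of all 3 lists stand beside 26.7% higher and 19.5% lower of all loci in GW6a-4.6, and 22.8% and 29.7% in OsglHAT1-OE.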

How the data were processed

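Per the labels, total RNA of the shoot apical meristem was sequenced single-end after library construction with a TruSeq kit. Bowtie, edgeR and the build IRGSP-1.0 are named, without versions or roles, per the submitters' processing notes. The deposited table holds a signal per transcript model that the authors call RPM per the file headers. The smallest value above 0 in each library was taken as 1 read. Every value was a whole multiple of it within a tolerance of 0.01 (100% of values). This gave library totals of 5207710 to 7667853 reads and 13884868 to 20629337 alignments. The recovered reads of a model are counted alignments and need not be distinct reads. The columns sum to 2411271 to 2690367, which strict RPM would not. A read may have been counted at several models or more than once at the same model, and near-identical paralogs or overlapping genes may share reads. No strand setting or transcript length was given in the sources used here. The planned test had assumed RPM and was kept.

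The table holds 43481 models of 36819 loci, and 155 models matched the rule. The 31487 loci whose signal reached 1 in at least 2 libraries were fitted with limma 3.58.1 (lmFit and eBayes, trend on, R 4.3.3) using log2(signal + 1), 1 mean per group over all 8 libraries, and adjusted by Benjamini-Hochberg at 0.05 over all tested loci in each of 3 contrasts. Log2 changes understate those of low loci. Folds are ratios of group means. Where a group had no reads, the bound uses 3 reads over that group, and with 1 to 3 reads it carries an exact binomial 95% counting interval. Intervals cover counting error only and take recovered reads as distinct. The fit was tested on simulated data.

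Named members were the 3 with the highest mean in each class, the called changes of at least 1 on the log2 scale (up to 5 each way per class and line), up to 3 each way between the lines, those called in opposite directions, and those called in GW6a-4.6 on chromosome 6. Members, lists and tests were chosen with earlier results of these data known. The text patterns of some lists were narrowed after the table was read, by annotation alone. Chromosomes were read from the locus identifiers. Alternatives were other pseudocounts, filters, scalings, models summed per locus, only the groups compared, each library left out, a replicate block, edgeR 4.0.16 and DESeq2 1.42.0 on the recovered read counts. No sequence was printed.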

Additional observations from a re-analysis of the deposited data

Results flagged for a closer look

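Of the 93 tested pectin loci, 2 were called in opposite directions in the lines. The share of all tested loci with opposite calls is not given here, so whether this count is unusual cannot be judged. Each of the 2 loci had an opposite call that was lost under some alternatives, as given above. Both were picked by their opposite calls, so the difference between the lines, fitted to the same libraries, is a description and not further support. For the pectinesterase Os01t0311800-01 it was -1.62 ± 0.25 on the log2 scale, OsglHAT1-OE minus GW6a-4.6 (limma adjusted p = 3.17e-06), with means of 2.63 ± 0.518 and 10.3 ± 2.39 (SD, n = 3 each) around 5.02 ± 2.13 in Nipponbare (n = 2). For the polygalacturonase inhibitor Os03t0436600-00 it was -2.18 ± 0.28 (limma adjusted p = 8.05e-08), with means of 0.528 ± 0.319 and 5.96 ± 1.52 around 2.51 ± 0.246. In both, all 3 libraries labelled GW6a-4.6 were above, and all 3 labelled OsglHAT1-OE below, both Nipponbare libraries.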

How the results depend on the processing

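Among the 60 named members, 127 calls were made, of which 97 were kept under every alternative, 30 were lost under at least 1 and 0 reversed. Over all alternatives, calls were lost in 125 instances and gained in 55. Members higher in OsglHAT1-OE than in GW6a-4.6 numbered 15, but 26 with quantile normalization and 23 with edgeR. The median of all loci between the lines was then 0.06 and 0.01 in place of -0.13. With 1 library left out, higher and lower members ranged from 36 to 43 and 13 to 19 in GW6a-4.6, from 25 to 36 and 15 to 16 in OsglHAT1-OE, and from 10 to 17 and 18 to 26 between the lines, where 10 came without GW6a-4.6 replicate 2, OsglHAT1-OE replicate 1 or OsglHAT1-OE replicate 2. All loci called ranged from 10967 to 15800, 12997 to 16647 and 8186 to 9932. A lone Nipponbare library was assumed to vary like the other groups. Deviations from the group means correlated at -0.003 to 0.065 between same-numbered libraries, beside -0.065 to 0.031 between other pairs of libraries from different groups. Because each mean was taken over few libraries, these correlations are not free of each other. They cannot decide whether the numbers pair the libraries. A replicate block gave 45 higher and 17 lower members in GW6a-4.6, 34 and 15 in OsglHAT1-OE, and 15 and 25 between the lines. With 2 Nipponbare libraries and 3 reads worth up to 0.576, changes of loci near that signal rest on few reads.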

Other observations

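Named after their values were seen, some genes of the wider pectin lists had large changes. In the side-chain list, the beta-galactosidase Os06t0573600-01 rose from 57.3 ± 0.424 in Nipponbare (SD, n = 2) to 150 ± 4.87 in GW6a-4.6 and 146 ± 16.4 in OsglHAT1-OE (n = 3 each), at limma adjusted p = 9.12e-14 and 1.73e-13. The arabinofuranosidase Os07t0686900-01 rose from 26 ± 2.28 to 88.4 ± 3.24 and 55.9 ± 8.57 (limma adjusted p = 7.74e-14 and 9.66e-09), and it was lower in OsglHAT1-OE than in GW6a-4.6 by -0.66 on the log2 scale (limma adjusted p = 2.61e-05). In the pectin synthesis list, Os08t0327100-01, annotated as similar to QUASIMODO1, rose from 93.1 ± 7.12 to 189 ± 18.8 and 242 ± 9.09 (limma adjusted p = 3.10e-11 and 6.12e-15). The family 8 glycosyltransferase Os11t0592300-01 fell from 42 ± 3.58 to 17.1 ± 2.31 and 13.7 ± 4.46 (limma adjusted p = 4.40e-06 and 3.41e-08).

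Consecutively numbered wall-associated kinase genes on chromosome 4 moved apart. Os04t0598900-01 fell from 40.5 ± 3.04 in Nipponbare to 7.12 ± 1.23 in GW6a-4.6 and 1.71 ± 0.553 in OsglHAT1-OE (limma adjusted p = 6.33e-10 and 5.36e-16). Os04t0598800-01 rose from 2.47 ± 0.232 to 16.4 ± 3.34 and 7.18 ± 1.37 (limma adjusted p = 6.48e-10 and 7.52e-05). Os04t0599000-01 was at 83.8 ± 6.05 and 78 ± 2.76 in Nipponbare and GW6a-4.6 and fell to 34.4 ± 6.13 in OsglHAT1-OE (limma adjusted p = 2.25e-10). Near-identical sequence could share reads among them, which was not tested.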
